A study of Mus musculus with 2 samples.

Results

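Scavenger receptors are cell-surface and lysosomal membrane proteins of phagocytes and of the cells lining blood sinuses, and 10 genes for them were followed here in macrophages of the red pulp of mouse spleen. The genes were Stab1, Stab2, Cd36, Scarb1, Scarb2, Msr1, Marco, Scara5, Colec12 and Mrc1, out of 20638 named genes on the array. They were taken by family membership, and every probe whose accession belongs to 1 of them was used, 13 probes in all; 7 genes had 1 probe, and Msr1, Scarb1 and Scara5 had more than 1. Macrophages positive for F4/80 and low in CD11b had been sorted from digested spleens of wild-type (WT) mice and of mice labelled as lacking SIRPα, and cells of 5 animals per genotype were pooled before RNA was extracted and depleted of globin messages. Neither group carried a treatment according to the labels, and the strain, the age of the animals and the construction of the knockout allele were not stated in any source used here. Each genotype thus had 1 pool and 1 array, so no difference could be tested over samples, and genes were called by size alone, at a change of 2-fold or more between the arrays, which is 1 on the log2 scale.

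The family is grouped into classes by structure rather than by ancestry. Class A members (Msr1, Marco, Scara5, Colec12) carry a collagen-like stalk and bind modified lipoproteins, bacteria, ferritin or glycans. Class B members (Cd36, Scarb1, Scarb2) are hairpin proteins anchored at both ends that handle fatty acids, lipoprotein cholesterol or lysosomal cargo, the stabilins Stab1 and Stab2 are large endocytic receptors for hyaluronan, altered matrix proteins and phosphatidylserine, and the mannose receptor Mrc1 is a C-type lectin. In the spleen, such receptors clear aged cells, debris and lipid. SIRPα is an inhibitory receptor on macrophages that binds CD47 on the cells they examine.

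Of the 10 genes, Stab1 was higher and Cd36 was lower on the array labelled SIRPα-KO by at least 2-fold, and no other was called. For Msr1 only a lower bound under that limit was available, so whether it passed 2-fold is not known. Stab1 was 2.61-fold higher, and Cd36 was 3.18-fold lower. Marco, Colec12, Scara5 and 1 probe of Scarb1 had differences between 1.51-fold and 1.68-fold in the higher direction, Stab2 differed by less than its error, Msr1 was at least 1.65-fold lower, and Scarb2 and Mrc1 were not well above background on either array. Among the 15831 genes measured, 3.12% rose past the 2-fold limit and 5.41% fell past it, against 1 and 1 of the 8 measured members. The median difference was 0.64 on the log2 scale over the 8 measured members and -0.08 over all measured genes. Under the other processing choices described below, the member median ranged from 0.25 to 0.73. It was lowest with the dimmest measured probe of each gene, where 4 members lay above 0 and 4 below. Msr1 entered the 8 through the WT array alone, so these values are a description and support nothing about the family as a whole.

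After a log2 difference, ± gives the signal errors that the scanner software reports for the spots compared, combined on the log2 scale; after a signal it gives that spot's own error. These errors describe how well a spot was read, not how animals or pools vary. Every member probe was spotted once. Among probes spotted at least 8 times on these arrays, single spots gave a difference with a median SD of 0.29 for signals of 10 to 30 (84 probes), 0.20 for 30 to 100 (73 probes) and 0.15 for 100 to 1000 (55 probes). The software errors of the same probes had medians of 0.30, 0.22 and 0.20, not smaller than those SDs. This need not hold for a single probe. The errors of Colec12 (0.25), Stab2 (0.26) and the brighter Scara5 probe (0.26) were below the 0.29 of their range of signals.

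**Figure D1:**
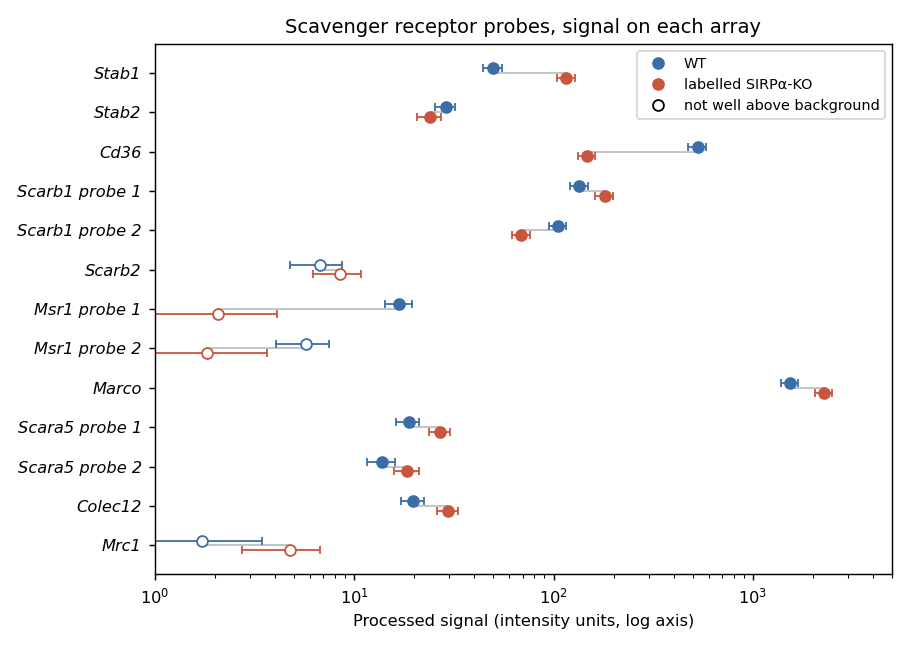
Processed signal of the 13 scavenger receptor probes (intensity units, log axis) on the WT array (blue) and the array labelled SIRPα-KO (red), 1 spot each; bars are the software's signal error, drawn down to the axis limit where they reach below it, and open points were not well above background. Cd36 lies far to the left on the red array, Stab1 to the right, and the signals of Msr1, Scarb2 and Mrc1 are dim.

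Sirpa was examined first as a check of the labels. Its only probe read 795 in WT and 1006 on the array labelled SIRPα-KO, a log2 difference of 0.51 ± 0.20, so the signal did not bear out the label; the position of the probe relative to the deleted part was not stated in any source used here. Every direction therefore follows the labels alone, and the text speaks of the array labelled SIRPα-KO throughout. The WT array had 71.5% of its 39386 probes well above background and the other array 65.3%, with 0 saturated spots. The marker genes of the sorted type that were measured numbered 11 of 13 listed. Adgre1, which encodes F4/80, read 6830 and 10406 at its brighter probe (0.78 ± 0.20) and 737 and 474 at the other (-0.47 ± 0.20), and Spic, the transcription factor these cells depend on, read 53.6 and 53.6. Vcam1, an adhesion molecule of the type, read 82.1 and 63.2, whereas the efferocytosis receptors Mertk and Timd4 were not well above background on either array. The 2-fold calls numbered 494 higher and 856 lower genes. Higher genes made up 36.6% of the calls; the share was 47.0% after quantile normalization, 47.1% in the authors' deposited table, 20.8% without scaling and 15.0% after normexp background correction with an offset of 50.

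The bases upstream of the transcription start are shown for Stab1, Cd36 and Marco. Stab1 and Cd36 are the members called at 2-fold, and Marco reached 2-fold under quantile normalization. The 250 bases before the start come from RefSeq, assembly GRCm38.p6, and read 5′ to 3′ on the strand of the gene. The table held 6 of the 10 members and 1 start for Cd36, a gene with several RefSeq transcripts. Capitals mark matches on either strand to TGCTGA, the core letters of sites for MAF proteins, to AGGTCA, the hexamer read by many nuclear receptors, and to GAGGAA, a core of sites for the macrophage factor PU.1.
Stab1 (chr14:31168642-31168891, minus strand): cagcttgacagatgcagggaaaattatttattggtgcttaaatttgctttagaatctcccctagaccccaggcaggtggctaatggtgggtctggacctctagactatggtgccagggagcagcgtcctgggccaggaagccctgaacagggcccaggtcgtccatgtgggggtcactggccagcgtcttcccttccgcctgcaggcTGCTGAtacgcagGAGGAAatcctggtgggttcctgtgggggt
Cd36 (chr5:17835897-17836146, minus strand): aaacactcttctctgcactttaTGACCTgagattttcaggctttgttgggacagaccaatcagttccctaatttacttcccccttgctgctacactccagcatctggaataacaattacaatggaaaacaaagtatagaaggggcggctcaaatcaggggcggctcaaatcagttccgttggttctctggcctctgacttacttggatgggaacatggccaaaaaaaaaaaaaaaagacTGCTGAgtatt
Marco (chr1:120505025-120505274, minus strand): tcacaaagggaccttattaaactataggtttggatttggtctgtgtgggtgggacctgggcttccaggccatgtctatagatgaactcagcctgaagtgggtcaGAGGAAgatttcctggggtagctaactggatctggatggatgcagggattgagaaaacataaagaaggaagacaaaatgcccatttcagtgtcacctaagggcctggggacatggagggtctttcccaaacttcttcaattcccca

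Stab1 had TGCTGA 43 bases and GAGGAA 30 bases before the start, counted from the first letter of the match. Cd36 had TGCTGA 11 bases and AGGTCA, on the opposite strand, 228 bases before the start. Marco had GAGGAA at 146 bases. None of these matches overlapped another. Over all 32851 promoters of the table, 16.1% held TGCTGA, 14.0% AGGTCA and 23.3% GAGGAA in the same window. Among the 6 members in the table, TGCTGA was found in 3 (Stab1, Cd36, Scarb2), AGGTCA in 2 (Cd36, Stab2) and GAGGAA in 3 (Stab1, Marco, Mrc1). A match is a description of letters, and nothing was measured on binding.

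The stabilins parted. Stab1, the stabilin of macrophages and sinus endothelium, read 49.96 ± 5.43 in WT and 116 ± 11.8 on the array labelled SIRPα-KO. The signals thus did not overlap within their errors. The log2 difference was 1.39 ± 0.21, and 168 of the 15831 measured genes had a larger positive difference. Stab2, its hyaluronan-binding relative typical of sinus endothelium, read 28.8 ± 3.45 and 23.9 ± 3.23. Its log2 difference of -0.10 ± 0.26 was smaller than its error. The difference of Stab1 exceeded that of Stab2 by 1.48 ± 0.34, a value in which any scaling by a constant cancels.

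In class B the direction differed from gene to gene. Cd36, the receptor for long-chain fatty acids and oxidised lipoproteins, read 528 ± 52.8 in WT and 147 ± 14.9 on the array labelled SIRPα-KO. The brightness of the spot itself, before any background step, was 576 against 184, over a local background of 19.0 and 17.5, so the fall was already in the raw reading. The log2 difference was -1.67 ± 0.21, and 308 of the 15831 measured genes lay lower. Against Stab1 the Cd36 difference was 3.06 ± 0.30 lower on the log2 scale. Scarb1, the receptor for high-density lipoprotein, had 2 probes for the same accession, and they disagreed. The brighter probe read 135 ± 13.6 and 180 ± 18.2, a difference of 0.59 ± 0.21, and the other read 105 ± 10.7 and 68.8 ± 7.12, a difference of -0.44 ± 0.21. The probes were 1.04 ± 0.29 apart, and no direction can be given for Scarb1. Scarb2, the lysosomal member that carries β-glucocerebrosidase, read 6.74 and 8.55, not well above background on either array, so no fold is given.

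**Figure D2:**
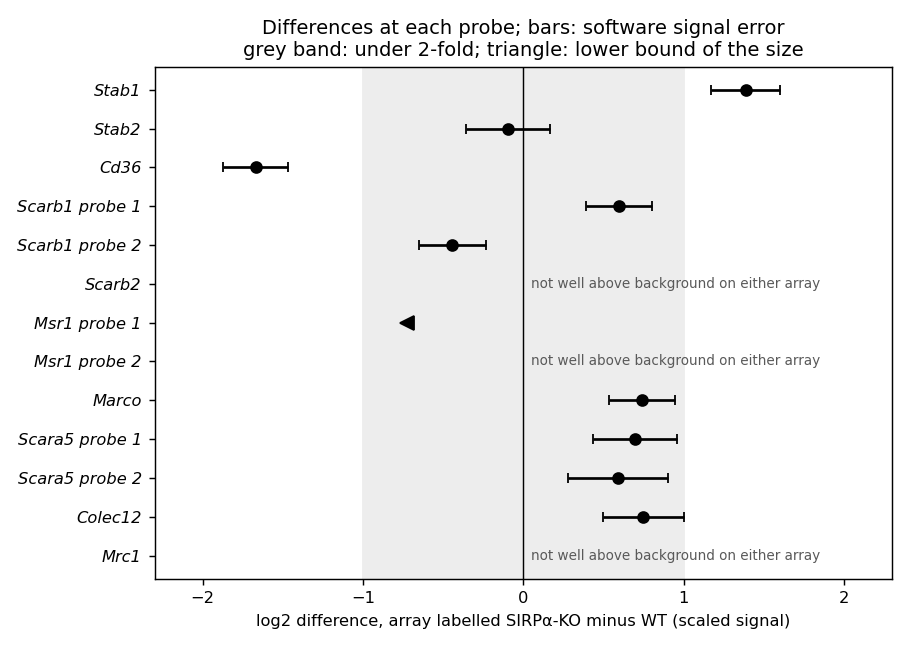
Log2 difference (array labelled SIRPα-KO minus WT, scaled processed signal) at each scavenger receptor probe, with the software's signal error as bars; the grey band marks differences under 2-fold and the triangle is a lower bound. Stab1 (1.39) and Cd36 (-1.67) lie outside the band on opposite sides, and the probes of Scarb1 lie on opposite sides of 0.

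Of the 4 class A genes, 3 leaned the same way without reaching 2-fold. Marco, which binds bacteria and is the hallmark receptor of marginal zone macrophages, read 1527 ± 153 in WT and 2263 ± 226 on the array labelled SIRPα-KO, a log2 difference of 0.74 ± 0.20. Colec12, a collectin-type receptor best known from vascular endothelium, read 19.8 ± 2.54 and 29.6 ± 3.47, a difference of 0.75 ± 0.25. Scara5, a ferritin receptor of stromal and epithelial cells, read 18.8 ± 2.49 and 27.0 ± 3.31 at its brighter probe and 13.8 ± 2.21 and 18.5 ± 2.70 at the other. The Scara5 differences of 0.69 ± 0.26 and 0.59 ± 0.31 lay 0.10 ± 0.41 apart, so its probes, which target different transcripts by accession, gave like values. Among all measured genes, 1124 had a larger positive difference than Marco and 1088 a larger one than Colec12.

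Msr1, the macrophage receptor for modified low-density lipoprotein, went the other way at a low level. Its brighter probe read 16.9 ± 2.57 in WT and 2.07 ± 2.06 on the array labelled SIRPα-KO, where it was not well above background. Setting the dim side to 9.09, the lowest signal well above background on that array, makes Msr1 at least 1.65-fold lower (-0.72 on the log2 scale). Under the alternatives the Msr1 value ranged from -2.86, with no filter on dim probes, to -0.11, after normexp with an offset of 50, so the size of this difference is not settled. The other Msr1 probe read 5.76 ± 1.69 and 1.83 ± 1.82, not well above background on either array, and gives no fold. Mrc1, the mannose receptor (CD206), read 1.74 ± 1.73 and 4.76 ± 2.02, likewise not well above background on either array. These readings concern 1 probe for Mrc1 and for Scarb2, and say nothing of the protein.

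The share of genes past 2-fold depended on how bright a gene was, so each member was also set beside the 1000 measured genes nearest to it in mean signal. Near Stab1, 3.0% of those genes were at least 2-fold higher, and their median difference was -0.005, against 1.39 for Stab1. Near Cd36, 7.4% were at least 2-fold lower, with a median of -0.12, against -1.67 for Cd36. Near Marco the shift was larger, with 16.7% past 2-fold on the lower side, 1.9% on the higher side and a median of -0.34, so Marco lay 1.08 above its neighbours in brightness. Near Colec12 and the brighter Scara5 probe the medians were -0.03 and -0.05, and 3.9% and 4.0% were at least 2-fold higher. The spots lying within 10 rows and 10 columns of a member on the array had median differences between -0.12 (Cd36) and 0.06 (Stab1) for the 9 probes measured on both arrays. Such a median covers many spots (212 for Stab1 and 258 for Cd36) and cannot show a fault of the member's own spot.

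**Figure D3:**
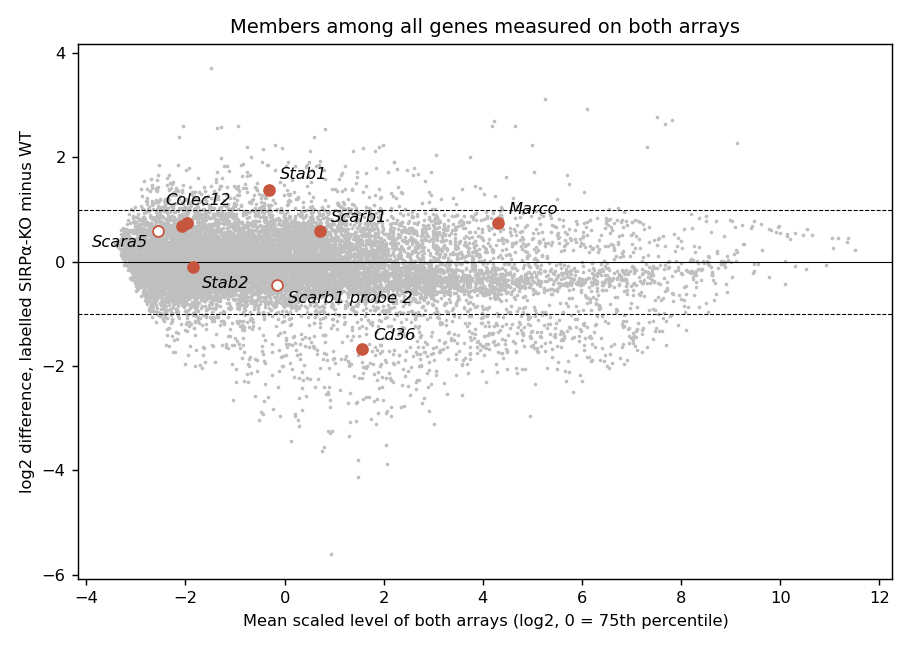
Log2 difference (array labelled SIRPα-KO minus WT) against mean scaled level for genes measured on both arrays (grey, 1 point per gene) with the scavenger receptor probes in red; open points are second probes and dashed lines mark 2-fold. Cd36 lies below the lower line, Stab1 above the upper one, and Marco stands above most genes of its brightness.

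How far a difference at 1 probe carries over to another probe of the same gene was read from all 2610 genes with more than 1 probe measured on both arrays. The sign differed between the 2 brightest probes in 45.9% of them, and the median gap was 0.42 on the log2 scale. The gap at Scarb1 was 1.04, and 15.6% of the genes had one as large. The gap at Scara5 was 0.10, and 14.2% of the genes had one as small. Of 241 such genes called at the brightest probe, 22 (9.13%) were also called in that direction at the second brightest. Stab1, Cd36, Marco, Colec12 and Stab2 had a single probe each, so their differences have no second probe beside them.

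Under the other processing choices Stab1 ranged from 0.83 to 1.47 and Cd36 from -1.84 to -1.42, and neither changed sign. Cd36 was past 2-fold in each of the 10 alternatives, and Stab1 fell short of 2-fold after normexp with an offset of 50. Both have a single probe, measured on both arrays. The mean of probes, the dimmest probe and no filter therefore leave their values unchanged by construction. Marco ranged from 0.57 to 1.01. It passed 2-fold after quantile normalization and in the authors' deposited table (log2 values of 10.4 for WT and 11.4 for the other array), which gave nearly the same differences. Colec12 (0.29 to 0.83) and Scara5 (0.24 to 0.78) stayed above 0 and under 2-fold. Stab2 ranged from -0.27 to 0.02.

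**Figure D4:**
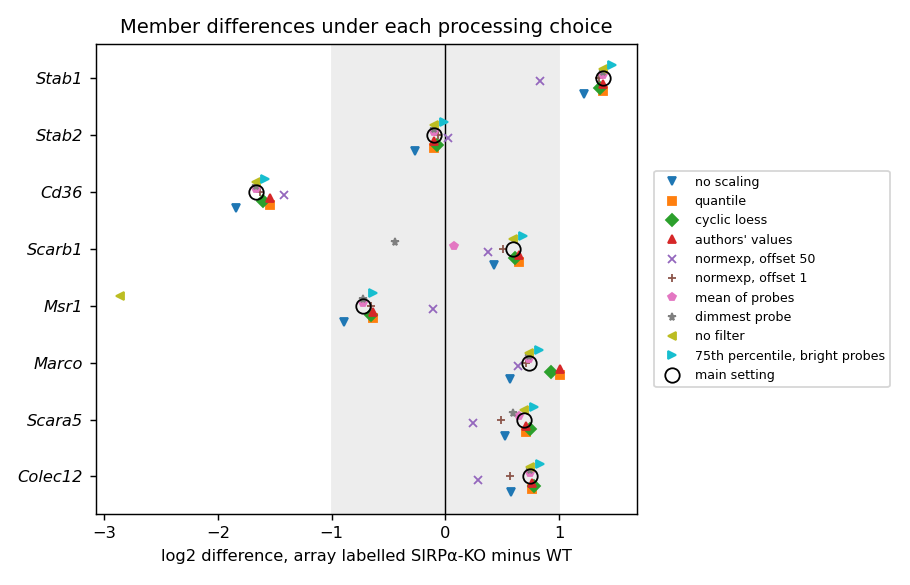
Log2 difference (array labelled SIRPα-KO minus WT) of the 8 measured members under the main setting (circles) and under 10 other processing choices (coloured marks); the grey band marks differences under 2-fold. Cd36 stays left of the band throughout, Stab1 enters it after normexp with an offset of 50, and Scarb1 changes side with the choice of probe.

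Genes around these receptors were read from lists by role, each against the shares of 3.12% and 5.41% over all genes. Of 17 measured genes of the other scavenger receptor classes, 0 were at least 2-fold apart either way, 4 lay above 0, and the median was -0.23 (-0.40 to -0.05 under the alternatives). Among them Cd163, the haptoglobin-haemoglobin receptor, read 39.2 and 23.6, a difference of -0.56 ± 0.24, and Olr1, a receptor for oxidised lipoprotein, read 134 and 72.2, a difference of -0.72 ± 0.21. Lrp1, a large endocytic receptor, differed by -0.15 ± 0.23, and Cd68 had no probe matched by accession. The C-type lectins split, with 2 of 13 measured genes at least 2-fold higher and 2 lower. Clec4d and Clec4e, activating receptors for mycobacterial glycolipids, were 6.04-fold lower (806 to 119) and 2.20-fold lower (308 to 124). Clec4a2, an inhibitory receptor of the same lectin group, was 3.39-fold higher (94.4 to 284), and Clec10a, a galactose lectin, at least 2.33-fold higher. Clec10a read 7.39 in WT, not well above background, and 16.4 on the other array, so it was measured through that array alone. Cd209b, the lectin of marginal zone macrophages, was not well above background on either array.

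Of 18 measured receptors and bridging molecules for apoptotic cells, 0 were at least 2-fold higher and 1 lower, the phosphatidylserine receptor Adgrb1 (2.24-fold), whose dimmer probe differed by -0.19. Of 18 measured genes of lipid uptake, efflux and storage, 2 were at least 2-fold higher and 0 lower, and the median was 0.20 (-0.03 to 0.29 under the alternatives). These were Fabp5, a fatty acid-binding protein, which was 2.05-fold higher, and Abcg1, a cholesterol exporter, which was at least 2.21-fold higher. Abcg1 read 7.94 in WT, not well above background, and 15.6 on the other array. Cd36 stood on the other side of 0 from both, but the list itself had 10 genes above 0 and 8 below. The partners of CD36 in signalling had a median of -0.36 (-0.53 to -0.07), with 0 of 12 measured genes past 2-fold upward and 1 downward, the Toll-like receptor gene Tlr6 (2.01-fold, from 26.7 to 11.8). Ligands and sorting partners of the stabilins and of LIMP-2, the product of Scarb2, had 0 of 12 measured genes past 2-fold and a median of 0.09 (-0.08 to 0.18).

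The 16 measured regulators of scavenger receptor genes centred on 0.00 (-0.14 to 0.19). Among them, 1 rose past the 2-fold limit and 1 fell past it. Rxra, the partner of PPARγ and LXR on DNA, was 3.37-fold lower at its brighter probe (321 to 84.5), whereas its further probe differed by -0.24 ± 0.21. Pparg, which is known to raise Cd36 in macrophages, differed by 0.29 ± 0.21 over 10 spots per array, and Nr1h3, which encodes LXRα, by 0.30 ± 0.21 and at its other probe by 0.21 ± 0.23. Whether any of these bears on the receptors was not tested.

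Several of these receptors are also made by other cells, and in a sorted bulk sample fewer cells of a type and less RNA per cell cannot be told apart. Stab1, Stab2 and Cd36 are transcribed in endothelium as well: of 10 measured endothelial markers, members aside, 0 passed 2-fold upward and 1 downward (Emcn). Their median was -0.21, and their summed scaled signal was 42.0 in WT against 35.3. Of these markers 3 lay above 0 and 7 below, and 5 lay on each side after quantile normalization and in the authors' deposited table. Lyve1 differed by -0.50 and Pecam1 by -0.46, Tek, Robo4 and Egfl7 by 0.45, 0.23 and 0.20, and Cdh5 was not well above background on either array. Cd36 is also a platelet protein: of 9 measured platelet markers, 1 was at least 2-fold higher (Gp1ba, 2.72-fold) and 0 lower, with a median of -0.11 and summed signals of 135 and 150. In these sums Pf4 (12236 in WT and 12448 on the other array) weighed most, and 4 markers lay above 0 and 5 below. Pf4 differed by 0.20 and Itga2b by -0.48. Scara5 is a stromal gene: of 7 measured stromal markers, 0 were higher and 1 lower, with a median of -0.04 and summed signals of 132 and 39.9, in which Ccl19 (12915 to 3245 at 1 of 3 probes, the others at 0.04 and -0.01) weighed most, and Pdgfra read 11.1 and 10.8. Marco and Msr1 mark marginal zone macrophages, of whose other markers 3 were measured, with summed signals of 6.36 and 6.58. Their median was 0.12 (-0.26 to 0.28 under the alternatives), and 0 passed 2-fold either way. Siglec1 differed by 0.12, with a further probe at -0.65, and Nr1h3 by 0.30. Cd209a differed by -0.98 (97.8 in WT and 44.2 on the other array), and its further probe was well above background in WT alone. Monocytes also transcribe Cd36 and Msr1: the 4 measured monocyte markers had a median of -0.49 and summed signals of 6.19 and 3.92. Of these markers, 1 fell past the 2-fold limit and 0 rose past it, and 1 lay above 0 and 3 below. The monocyte median ranged from -0.66 to -0.03 under the alternatives. It was highest with the dimmest measured probe of each gene, where 2 markers lay above 0 and 2 below. Neutrophil, dendritic cell, B cell and T cell lists had medians between -0.23 and 0.00, with 0 genes past 2-fold upward in any of them, and 1 downward in each but the T cell list, which had 0; these were S100a8, Flt3 and Cr2. The other Flt3 probe differed by -2.25, and the other Cr2 probe, which read 199 and 220, by 0.31 ± 0.21. Markers of the sorted type itself had summed signals of 141 and 199, in which the brighter Adgre1 probe weighed most, and a median of -0.14; Cd5l, which encodes a protein secreted by macrophages, read 31.5 and 76.8, or 2.75-fold higher. The Fcγ receptor gene Fcgr1 was 2.35-fold higher, and Cd47, the ligand of SIRPα, differed by -0.56 ± 0.23 and at its other probe by -0.20 ± 0.24. The part of other cells in the receptor values was not tested.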

How the data were processed

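RNA from sorted splenic macrophages was labelled with Cy3 and hybridised to 1-colour mouse arrays (design 26655). The deposited scanner tables hold spot intensity from Agilent Feature Extraction 11.0.1.1, on a linear scale, background-subtracted and spatially detrended within the array, per the file headers (build mm9). The authors' deposited table of log2 values has the same column median (4.56) on both arrays and rises with the scanner signal; its normalization was not stated in any source used here. It served as an alternative, though its differences for the measured members lay close to those after quantile normalization. Marco was 1.01, Stab1 1.39 and Cd36 -1.54 under both, so they are not separate support.

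Control spots and outlier spots were left out (190 and 167 of 43020). Each array was scaled on the log2 scale by its own 75th percentile of processed signal (100.1 and 89.0). Probes were named by accession through RefSeq (27200 of 39386 probes, names only). A probe was measured when well above background on at least 1 array; where the other array was not, the dim side was raised to the lowest value well above background there and the fold is a lower bound. For counts a gene was given by its brightest measured probe. R 4.3.3 with limma 3.58.1 ran quantile normalization, cyclic loess and normexp; the other alternatives were no scaling, scaling on probes above background on both arrays, the mean or the dimmest probe, no filter, and limits of 1.5-fold and 3-fold. Normexp used median spot signals because the tables used here have no mean signal. Precision is limited by the number of arrays.

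The members and lists were chosen with earlier results of these data known. The text names all members, genes of the other lists at least 2-fold apart at their brightest measured probe, and a fixed set of markers and regulators; the results of some genes under this rule are not reported here. With 2 arrays no likeness of pattern between genes was computed.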

Additional observations from a re-analysis of the deposited data

How the results depend on the processing

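Of 80 values of the 8 measured members under 10 other choices, 70 stayed within the signal error, 10 moved by more and neither member past 2-fold changed sign. Part of the 70 could not move, because the mean, the dimmest probe and no filter leave members with 1 probe unchanged. The error for Msr1 was 1.45, so only a large shift of Msr1 could count as moved. The 70 of 80 is thus no measure of how stable the values are. Scarb1 turned from 0.59 to -0.44 with its dimmer probe, and Stab2 lay between -0.27 and 0.02. The count of members at least 2-fold higher, 1, was 2 with no filter, in the authors' values and after quantile normalization, 5 for a 1.5-fold limit, and 0 for a 3-fold limit and after normexp with an offset of 50; the count lower, 1, was 2 for a 1.5-fold limit and with no filter. Over all genes, the 494 higher became 304 without scaling, 1810 for a 1.5-fold limit, 881 with no filter, 103 for a 3-fold limit, and 102 and 296 after normexp with offsets of 50 and 1; the 856 lower became 2081 for a 1.5-fold limit, 1638 with no filter and 369 for a 3-fold limit. The fold limits, the filter and the scaling change these counts by construction, and an added offset of 50 shrinks the differences of dim probes; the part of the background step itself was not tested. The median over all genes moved from -0.08 to -0.25 when no scaling was applied. Both normexp settings were chosen after the data were seen, and normexp on mean signals was not run. No paired analysis was possible because each genotype has 1 array. Signals of about 10 to 30 (Msr1, Scara5, Colec12, Stab2) lie close to the limit of detection, and Mrc1 and Scarb2 lie under it.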

Other observations

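Marco lies within the upper part of the bright genes' spread. Among 1236 genes measured on both arrays with a mean scaled level of at least 4 on the log2 scale, 239 had a difference between -0.4 and -0.2. Above 0, steps of 0.2 held between 63 and 82 genes each up to 0.8, among them Marco (0.74), then 36 up to 1.0 and 5 up to 1.2. Steps between -1.8 and -0.8 held between 38 and 59 genes each. The steps were set after the data were seen, there is no replicate, and the cause was not tested.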
